A study of Homo sapiens and Mus musculus with 22 samples.

Results

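Described here are 10 genes whose RNA was lower in U2OS cells, a human osteosarcoma line, after knockout (KO) of the histone methyltransferase gene SETDB1: INSL4, HBE1, TNFAIP6, SULT1A1, FOXS1, LBH, CAV1, GJA1, LRRN1 and S1PR5. The set was chosen by measured values, being lower in SETDB1 KO than in WT libraries, with the BIX values also in view. They were taken by symbol from 22681 genes listed in the table of the SETDB1 cells and 21988 in the table of the ATG5 cells. The SETDB1 groups were wild-type (WT) U2OS and U2OS with KO1 or KO2, with 2 libraries each, and all 6 libraries are named mock. The ATG5 groups were U2OS carrying a vector or an ATG5 knockdown (KD), each named mock or BIX, the latter meaning 10 µM BIX-01294 for 12 h. These 4 groups have 1 value each, which the labels give as standing for 2 replicates. Mouse L929 fibroblasts, cGAS WT or cGAS KO, with mock or BIX, had 1 library per group and give the mouse counterparts. Mock follows the sample names, since the treatment note gives BIX for every RNA sample. The labels do not say how SETDB1 was disrupted, whether KO1 and KO2 are single clones, or whether libraries of a group came from separate cultures. P values therefore measure only the spread between these libraries.

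SETDB1 places trimethylation on lysine 9 of histone H3 (H3K9me3), a mark of silent chromatin, and is guided to many of its targets by zinc finger repressors and their cofactor TRIM28. It is best known for keeping retroelements, imprinted loci and lineage-restricted genes silent, so loss of the enzyme is usually described through genes that go up. BIX inhibits the related enzymes EHMT1 and EHMT2 (GLP and G9a), which place the dimethyl form of the mark. The genes described here lay on the other side, with less RNA in the KO cells. They share no single pathway: they encode a hormone, a globin, a hyaluronan-binding protein, a detoxifying enzyme, a pair of transcriptional regulators, a membrane scaffold, a gap junction channel, an adhesion protein and a lipid receptor. In bulk RNA, fewer cells of a type and less RNA per cell cannot be told apart.

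Start-site sequences are shown because genes that stood lower together need not be built alike, and these differ widely in base composition. RefSeq windows (GRCh38.p14, 250 bases before to 50 after the gene start) were found for 7 of the 10 genes and not for HBE1, SULT1A1 or FOXS1. Each is written 5′ to 3′ on the gene's strand. Capitals mark matches, on either strand, to the AP-1 site TGAGTCA, to TATAAA, the core promoter box read by the TATA-binding protein, or to GGGCGG, known as the GC box.
INSL4, chr9:5231169-5231468, plus strand: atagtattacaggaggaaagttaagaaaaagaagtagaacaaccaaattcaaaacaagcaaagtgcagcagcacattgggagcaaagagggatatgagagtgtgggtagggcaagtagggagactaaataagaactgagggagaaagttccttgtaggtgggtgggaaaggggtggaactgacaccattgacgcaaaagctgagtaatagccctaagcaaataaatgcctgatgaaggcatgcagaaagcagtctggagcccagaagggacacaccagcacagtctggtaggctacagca
TNFAIP6, chr2:151357342-151357641, plus strand: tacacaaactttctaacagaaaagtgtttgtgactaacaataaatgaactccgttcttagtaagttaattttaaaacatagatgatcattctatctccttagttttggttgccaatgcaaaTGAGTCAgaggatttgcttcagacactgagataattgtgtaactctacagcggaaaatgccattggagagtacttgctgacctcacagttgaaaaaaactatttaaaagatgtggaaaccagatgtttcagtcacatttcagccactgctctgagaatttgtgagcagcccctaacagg
GJA1, chr6:121435396-121435695, plus strand: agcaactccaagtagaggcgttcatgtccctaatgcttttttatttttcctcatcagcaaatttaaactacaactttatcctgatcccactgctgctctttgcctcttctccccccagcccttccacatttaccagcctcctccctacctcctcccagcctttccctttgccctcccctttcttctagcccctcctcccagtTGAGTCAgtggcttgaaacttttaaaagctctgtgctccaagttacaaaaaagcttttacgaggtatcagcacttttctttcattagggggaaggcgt
LBH, chr2:30231284-30231583, plus strand: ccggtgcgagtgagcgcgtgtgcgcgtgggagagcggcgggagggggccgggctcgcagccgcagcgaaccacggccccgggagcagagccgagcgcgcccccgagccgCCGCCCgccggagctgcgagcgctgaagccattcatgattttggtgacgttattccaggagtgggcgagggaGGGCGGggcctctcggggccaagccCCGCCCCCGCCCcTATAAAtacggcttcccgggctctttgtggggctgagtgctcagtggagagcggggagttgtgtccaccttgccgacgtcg
CAV1, chr7:116524759-116525058, plus strand: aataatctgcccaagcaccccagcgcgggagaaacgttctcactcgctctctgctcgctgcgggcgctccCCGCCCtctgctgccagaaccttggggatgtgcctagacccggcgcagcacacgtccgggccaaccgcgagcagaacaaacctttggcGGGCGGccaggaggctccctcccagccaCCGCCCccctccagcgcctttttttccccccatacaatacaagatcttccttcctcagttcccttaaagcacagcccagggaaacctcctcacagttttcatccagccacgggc
LRRN1, chr3:3799181-3799480, plus strand: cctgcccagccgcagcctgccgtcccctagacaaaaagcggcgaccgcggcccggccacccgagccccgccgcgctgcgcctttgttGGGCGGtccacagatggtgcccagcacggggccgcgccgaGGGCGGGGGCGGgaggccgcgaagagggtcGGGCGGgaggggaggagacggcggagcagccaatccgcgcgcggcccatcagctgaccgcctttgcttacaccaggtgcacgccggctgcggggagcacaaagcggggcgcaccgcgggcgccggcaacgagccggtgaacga

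In the windows shown, INSL4, TNFAIP6 and GJA1 were poor in CpG, the dinucleotide that DNA methylation acts on, with 1, 2 and 3 CpGs against a median of 14 over 35116 promoter windows of 300 bases. LBH and LRRN1 had 36 and 42, and the CAV1 window shown had 19. TNFAIP6 and GJA1 each held 1 AP-1 match, a sequence that 4.95% of all windows contain, and no other matched gene held it. The TATA box, present in 11.5% of all windows, was matched in LBH. GC boxes, present in 45.0%, were matched 4 times each in LBH and LRRN1, 3 times in CAV1 and 2 times in S1PR5, whose window (chr19:10517916-10518215, minus strand) held 14 CpGs. RefSeq lists further start windows for a pair of these genes: 1 more for S1PR5 with 34 CpGs, and 2 more for CAV1 with 18 and 36. Matches of different motifs did not overlap. An E-box (CACGTG) and a TEAD site (GGAATG) were searched as well and matched in none of these windows. The motifs were chosen with the sequences in view, and a match is a description of letters, not a site in use.

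Expression is given as FPKM, fragments scaled to transcript length and library size, which can be compared between genes. Differences are on the log2(FPKM + 1) scale, which understates the change of low genes. SETDB1 mRNA itself stood at 9.98 and 9.32 FPKM in WT, 5.90 and 7.03 in KO1 and 6.89 and 7.35 in KO2, and fell by 0.45 (SE 0.109, limma adjusted p = 0.0433). With a library left out in turn the adjusted p ran from 0.0291 to 0.255, and it passed only without KO1 replicate 2. ATG5 mRNA stood at 11.3 in vector mock and 10.1 in KD mock, so the KD is named by its label. Of 7 mesenchymal and bone markers, 5 reached FPKM 1 in at least 1 SETDB1 library, with VIM at 937 to 1033 and COL1A1 at 174 to 246. Others were low: ALPL at 0.791 to 2.28, SPP1 at 0.185 to 1.05, COL1A2 at no more than 0.154, and SP7 listed at 0. The sum of the 7 was 1253 to 1283 in WT and 1116 to 1226 in the KOs, and its part in the values below was not tested. Read counts are not in the tables used, so absolute depth is unknown. Of 12618 genes that reached FPKM 1 in 2 or more SETDB1 libraries, limma called 98 (0.777%) lower and 309 (2.45%) higher in the mean of the KOs at an adjusted p below 0.05. The lower count was 61 without WT replicate 1 and 36 without WT replicate 2.

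The 10 genes spanned a wide range of levels in WT. CAV1 (135.6 ± 1.37 FPKM, mean ± SD, n = 2) and LBH (100.2 ± 1.63) were the most abundant, followed by GJA1 (28.7 ± 1.21) and FOXS1 (14.6 ± 1.73). LRRN1 (9.83 ± 0.789), S1PR5 (9.36 ± 1.39) and SULT1A1 (8.82 ± 0.189) came next, and the S1PR5 libraries overlapped those of both others. TNFAIP6 stood at 5.15 ± 0.442. INSL4 (2.77 ± 0.773) and HBE1 (2.07 ± 0.277) were the lowest, with libraries that overlapped each other. All 10 passed the filter on low values, INSL4 and HBE1 through the WT libraries alone.

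The genes were picked for being lower in the KOs, so their KO values are a description and carry no test. In each of the 10, all 4 KO libraries lay below both WT libraries, as did 11.2% of all genes tested. All 10 were among the genes called lower in the mean of the KOs and in KO1 (0.515% of all genes), and 8 were in KO2 (0.436%), where LRRN1 and S1PR5 were not. The median difference was -0.89, against -0.01 over all genes tested. FPKM was at least 2-fold lower in 5 genes (INSL4, HBE1, TNFAIP6, SULT1A1 and FOXS1) and less than 2-fold lower in the other 5. The more abundant genes, CAV1, LBH and GJA1, were in the second set.

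**Figure D1:**
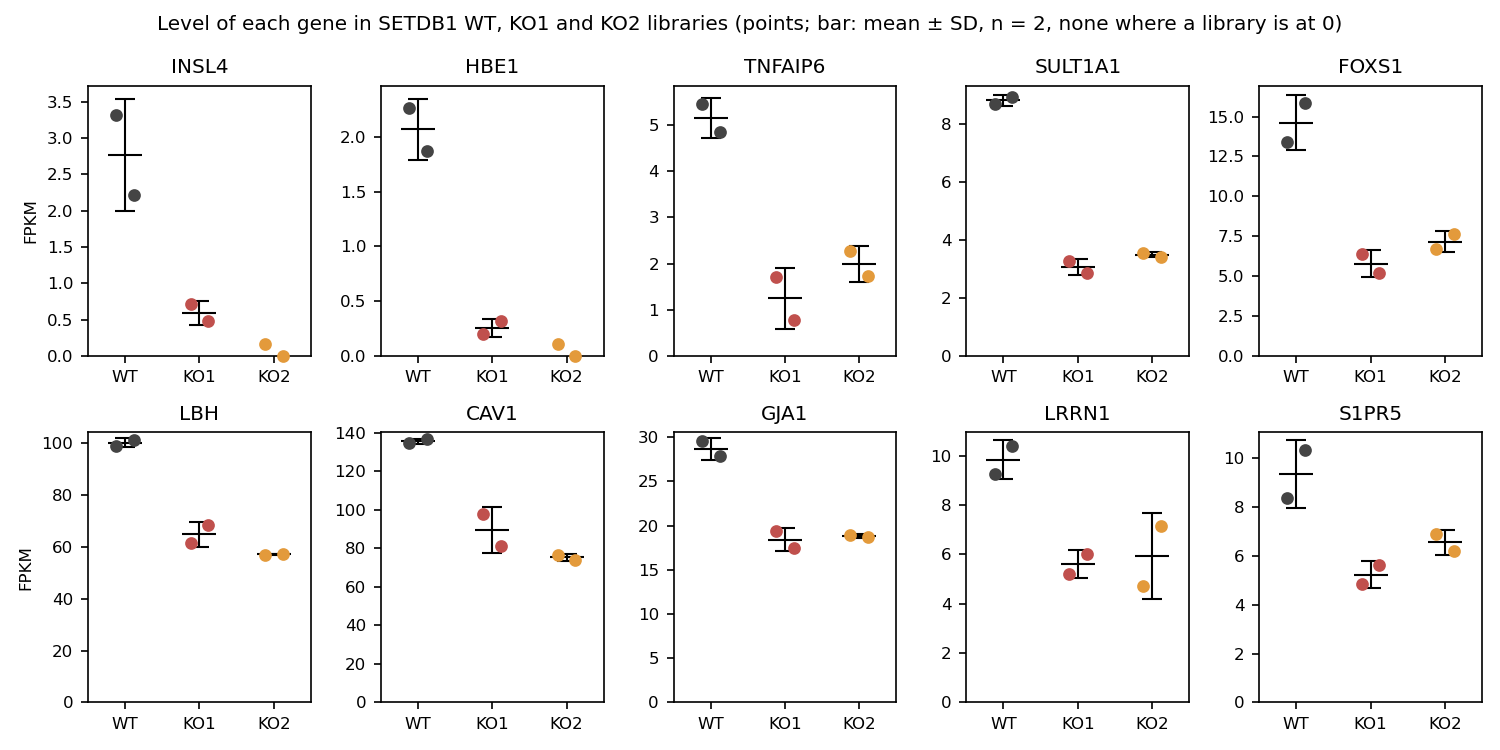
Level of each of the 10 genes (vertical axis, FPKM, from 0) in the WT, KO1 and KO2 libraries. Points are libraries and bars the mean ± SD (n = 2, drawn where no library is at 0). In each panel the 4 KO points lie below both WT points, nearest to 0 for INSL4 and HBE1.

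INSL4, a relaxin-family peptide hormone made mainly by the placenta, stood at 3.32 and 2.22 FPKM in WT, 0.713 and 0.477 in KO1, and 0.162 and 0 in KO2. The KO libraries averaged 12.2% of WT, a log2 difference of -1.51 (SE 0.160). Every KO library was under FPKM 1, and both KO2 libraries lay under both KO1 libraries. In the BIX experiment the gene was near the floor from the start: 0.0518 in vector mock and 0.0532 in vector BIX, 0.4995 in KD mock and 0.866 in KD BIX. It was below FPKM 1 in all 4 values, so it entered no BIX count. Trophoblast markers were close to absent in the SETDB1 libraries, where 1 of the 5 listed, the cytokeratin KRT7, reached FPKM 1 and CGA did not pass 0.124. Their summed level ran from 2.17 to 2.63 in WT and from 1.503 to 2.02 in the KOs, and its part in the INSL4 values was not tested. Of the other insulin and relaxin ligands and receptors, 4 were tested and none was called in the KOs (median -0.01). That is near the shares of all genes called, 0.777% lower and 2.45% higher.

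HBE1, the embryonic beta-like globin that carries oxygen in yolk-sac red cells, stood at 2.27 and 1.87 FPKM in WT, 0.196 and 0.316 in KO1, and 0.111 and 0 in KO2. The KO mean was 7.51% of WT (log2 difference -1.41, SE 0.143), the lowest share of the 10. The libraries of WT and KO were far apart, yet both sets were low. The steps between low FPKM values, which come from whole fragments, show how little lies behind them. In replicate 1, with the KO2 value set to 1 step, KO1 held 1.99 steps of HBE1 and WT 21.0, and INSL4 held 4.95 in KO1 and 21.0 in WT. In replicate 2, with KO1 set to 3 steps, WT held 14.0 steps of HBE1 and 11.0 of INSL4. Levels inside the KO groups of these genes therefore rest on a handful of fragments if a step is 1 fragment.

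In the ATG5 table HBE1 is listed jointly with the olfactory receptor gene OR51B5, which overlaps its locus, and that joint value did not go down with BIX: 1.45 to 1.49 in vector and 1.96 to 2.09 in KD. HBE1 alone cannot be read from it. Erythroid markers were at the floor, with HBA2, HBB, ALAS2 and EPB42 listed at 0 in all 6 SETDB1 libraries. HBA1 did not exceed 0.242. No other globin gene passed the filter on low values in the SETDB1 table.

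TNFAIP6 (TSG-6), a secreted protein that links hyaluronan to inter-alpha-inhibitor and is induced by inflammatory cytokines, stood at 5.46 and 4.84 FPKM in WT, 1.71 and 0.780 in KO1, and 2.27 and 1.72 in KO2. This put the KOs at 31.4% of WT (log2 difference -1.26, SE 0.168). Here KO1 was the lower KO. With BIX the gene went from 5.03 to 1.39 in vector (-1.33) and from 3.69 to 1.83 in KD (-0.73), so it was past a 2-fold log2 difference in vector and not in KD.

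Of all genes tested, 0.777% were called lower in the KOs and 2.45% higher. Among 10 other tested genes of hyaluronan synthesis, binding and breakdown, 1 was called lower and 0 higher (median -0.09). It was HAPLN1, which fastens hyaluronan to proteoglycans, and it fell by 0.44 (SE 0.0899, limma adjusted p = 0.0167). Its levels were 49.9 ± 3.14 FPKM for WT, 38.4 ± 1.64 for KO1 and 34.7 ± 1.17 for KO2 (SD, n = 2 each). KO1 alone did not pass (limma adjusted p = 0.114), nor did the mean of the KOs without WT replicate 1 (0.189) or WT replicate 2 (0.0517). HAPLN1 was also lower with BIX, at 59.1 and 25.6 in vector and 41.9 and 15.7 in KD. The hyaluronan synthase HAS2 went from 9.11 to 1.10 in vector and from 4.02 to 0.466 in KD. HYAL2, which cleaves hyaluronan, went from 43.8 to 11.4 and from 36.4 to 11.8. These 3 were the list's genes 2-fold lower with BIX in both, of 14 counted, where 2.79% of all genes were.

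SULT1A1, the cytosolic sulfotransferase that conjugates phenols and many drugs, stood at 8.69 and 8.95 FPKM in WT, 3.27 and 2.87 in KO1, and 3.55 and 3.43 in KO2. The groups were tight and well apart, and the KO mean was 37.2% of WT (log2 difference -1.20, SE 0.110). BIX moved it little: 8.51 to 6.20 in vector (-0.40) and 8.19 to 6.93 in KD (-0.21). It was not 2-fold lower with BIX in either background. SULT1A1 has near-identical neighbours whose reads the counting can split, so its level is uncertain. SULT1A2 stood at 1.06 in WT and 0.554 in the KOs, and the joint SULT1A4 row at 1.35 and 0.876. Of 5 other sulfotransferase-pathway genes tested, none was called in the KOs, near the background of 0.777% lower and 2.45% higher. All 5 differences were below 0 (median -0.13), as were 53.1% of those of all genes tested.

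FOXS1, a forkhead transcription factor of the neural crest and of pericytes, stood at 13.4 and 15.8 FPKM in WT, 6.36 and 5.19 in KO1, and 6.69 and 7.63 in KO2. On average the KOs had 44.3% of the WT level (log2 difference -1.07, SE 0.119). With BIX it was close to the floor, going from 9.44 to 0.605 in vector (-2.70) and from 15.4 to 1.05 in KD (-3.00). No gene of the 10 had a lower BIX share of mock, 6.41% in vector and 6.84% in KD. Of 20 other forkhead genes tested none was called in the KOs (median 0.00). Of all genes, 0.777% were called lower and 2.45% higher, so 0 of 20 is near the background. With BIX, 0 of 21 were 2-fold lower in both backgrounds, near the 2.79% of all genes, and 6 were higher in both. Of all genes measured in both experiments, 6.14% were 2-fold higher in vector and 7.34% in KD, each taken singly. Among the 6 were FOXO3 (4.88 to 17.9 in vector, 5.12 to 19.8 in KD), FOXN2 (5.22 to 17.8, 5.42 to 21.0), FOXA2 (2.88 to 7.65, 3.58 to 10.5) and FOXD4 (0.470 to 2.46, 0.486 to 2.43).

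LBH, a transcription cofactor of limb and heart development that Wnt signalling induces, stood at 99.0 and 101.3 FPKM in WT, 61.3 and 68.2 in KO1, and 56.9 and 57.3 in KO2. The KO mean was 60.8% of WT (log2 difference -0.71, SE 0.0897), and the replicates of WT and of KO2 lay within a few FPKM of each other. BIX had a far larger difference: 60.3 to 8.40 in vector (-2.70) and 64.5 to 10.2 in KD (-2.55). Other Wnt targets and feedback genes were not called in the KOs (0 of 13, median -0.01). This is near the background, where 0.777% of all genes were called lower and 2.45% higher. With BIX they split, with 3 of 16 2-fold lower and 1 higher in both. Of all genes, 2.79% were 2-fold lower in both. Of genes measured in both experiments, 6.14% were 2-fold higher in vector and 7.34% in KD, taken singly. BMP4 went from 67.6 to 19.3 in vector and from 56.4 to 14.9 in KD, and the R-spondin receptors LGR4 (9.52 to 2.43, 6.07 to 2.28) and LGR5 (2.62 to 0.619, 2.39 to 0.524) were lower as well. The growth regulator MYC was higher, from 21.8 to 167 and from 27.8 to 188.

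CAV1, the scaffold protein of caveolae, stood at 134.6 and 136.5 FPKM in WT, 97.97 and 81.3 in KO1, and 76.4 and 74.1 in KO2. The KO mean was 60.8% of WT (log2 difference -0.72, SE 0.0990), and both KO2 libraries were under both KO1 libraries. With BIX it went from 151 to 65.2 in vector (-1.20) and from 177 to 78.2 in KD (-1.17). Its partner CAV2, the next gene on the chromosome, stood at 11.4 ± 0.640 in WT, 11.1 ± 1.01 in KO1 and 11.5 ± 1.43 in KO2 (SD, n = 2 each; log2 difference -0.02, limma adjusted p = 0.975). Of 13 other caveolar genes tested, none was called in the KOs (median -0.07), near the background of 0.777% lower and 2.45% higher. With BIX, SDPR (cavin-2) was 2-fold lower in both backgrounds, from 3.34 to 0.618 and from 6.27 to 0.818. A row that joins MURC (cavin-4) with MSANTD3 and TMEFF1 was 2-fold higher, from 70.4 to 190 and from 79.9 to 276, and the 3 genes cannot be told apart there. CAV1 is also abundant in endothelium. None of 5 endothelial markers reached FPKM 1 and none was at 0 in every SETDB1 library. Their sum was 1.19 to 1.26 in WT and 0.616 to 0.904 in the KOs, and its part in the CAV1 values was not tested.

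GJA1, connexin 43, the main gap junction channel of bone cells, stood at 29.5 and 27.8 FPKM in WT, 19.4 and 17.5 in KO1, and 18.9 and 18.7 in KO2. That is a KO mean of 64.9% of WT (log2 difference -0.60, SE 0.0924), and the KO libraries overlapped each other. With BIX it went from 32.3 to 12.4 in vector (-1.31) and from 19.9 to 9.28 in KD (-1.02), so the KD mock value was already lower than the vector one. None of 6 other connexin and pannexin genes tested was called in the KOs (median 0.01), near the background of 0.777% lower and 2.45% higher.

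LRRN1, a leucine-rich repeat membrane protein of the developing nervous system, stood at 9.27 and 10.4 FPKM in WT, 5.21 and 6.01 in KO1, and 4.70 and 7.16 in KO2. KO2 had the widest replicate gap, and its libraries enclosed those of KO1. Together the KOs averaged 58.7% of WT (log2 difference -0.69, SE 0.143). With BIX it went from 9.45 to 2.58 in vector (-1.54) and from 8.21 to 1.27 in KD (-2.02). The sister gene LRRN2 was lower with BIX too (2.002 to 0.497, 2.48 to 0.531). Of 11 other neuronal leucine-rich repeat genes tested none was called in the KOs (median -0.07), near the background of 0.777% lower and 2.45% higher. The summed neuronal marker level, led by the tubulin TUBB3, was 127.6 to 131.3 in WT and 101.6 to 120.9 in the KOs. It was 78.7 to 97.6 in mock and 39.2 to 70.0 with BIX, with all 5 markers at FPKM 1 or more somewhere in each table, and its part in the LRRN1 values was not tested.

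S1PR5, a receptor for sphingosine 1-phosphate that acts in natural killer cells and oligodendrocytes, stood at 8.38 and 10.3 FPKM in WT, 4.85 and 5.62 in KO1, and 6.91 and 6.20 in KO2. The KO mean was 63.0% of WT (log2 difference -0.59, SE 0.119), close to that of GJA1. With BIX it went from 6.02 to 2.08 in vector (-1.19) and from 5.88 to 1.78 in KD (-1.31). Leukocyte markers did not reach FPKM 1 in any human value. The pathway around it was tested in 14 other genes, of which 1 was called lower and 1 higher (median 0.01). Of all genes, 0.777% were called lower and 2.45% higher. SPHK1, the kinase that makes the ligand, fell by 0.54 (SE 0.128, limma adjusted p = 0.0431) over both KOs. KO1 (limma adjusted p = 0.0916) and KO2 (0.134) did not pass when taken singly. Its levels were 9.55 ± 0.537 FPKM for WT, 6.18 ± 0.399 for KO1 and 6.46 ± 1.54 for KO2 (SD, n = 2 each). The SPHK1 call was lost without WT replicate 1 (limma adjusted p = 0.115), WT replicate 2 (0.297), KO1 replicate 1 (0.0603) or KO2 replicate 2 (0.0826). PPAP2C, a phosphatase that removes the ligand's phosphate, rose by 0.65 (SE 0.0996, limma adjusted p = 0.00214). It stood at 20.9 ± 0.235 in WT, 33.8 ± 2.87 in KO1 and 33.1 ± 3.75 in KO2, and was called without any 1 library. With BIX, SPHK1 went the other way, from 8.08 to 32.1 in vector and from 8.12 to 51.7 in KD.

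KO1 against KO2 is a comparison that the choice of the genes did not use. Over all 12618 genes tested, 0 differed at an adjusted p below 0.05 (limma), and 206 (1.63%) at an unadjusted p below 0.05. TNFAIP6, SULT1A1, FOXS1, LBH, CAV1, GJA1, LRRN1 and S1PR5 did not differ after adjustment (limma adjusted p = 0.9998 for each). TNFAIP6 differed by -0.44 (SE 0.194, limma unadjusted p = 0.0415), a value that was -0.74 without KO1 replicate 1 and -0.14 without KO1 replicate 2. INSL4 and HBE1 passed the filter through the WT libraries alone and were under FPKM 1 in all KO libraries. Nothing is read from their differences, their tests or their place in the counts that follow. The libraries of KO1 and KO2 did not overlap in 8 genes, INSL4 and HBE1 included, against 22.3% of all genes. KO1 was above KO2 for LBH and CAV1, and below for TNFAIP6, SULT1A1, FOXS1 and S1PR5. For INSL4 and HBE1 it was above at levels near the floor. Close replicates are part of what a call against WT needs, so this count is a description. The median difference over the 10, INSL4 and HBE1 included, was -0.04, against -0.01 over all genes.

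With BIX, 7 of the 9 members that reached FPKM 1, HBE1 counted by its joint row, were at least 2-fold lower in vector, where 4.29% of 12578 genes were, and 6 in KD, where 3.69% of 12613 were. The 6 were FOXS1, LBH, CAV1, GJA1, LRRN1 and S1PR5, lower in both, as were 2.79% of all genes. TNFAIP6 was the gene past the line in vector alone on the log2(FPKM + 1) scale, while by FPKM ratio it was 2.01-fold lower in KD. The median was -1.31 in vector and -1.17 in KD, against 0.00 and 0.01 over all genes. The genes were proposed with these values known, so the counts carry no test. The same 6 genes stood lower with BIX, on the log2 scale, than with SETDB1 KO, in both backgrounds. SULT1A1, more than 2-fold lower in the KOs, had a small BIX difference. INSL4 was too low in mock to show a fall, and HBE1 has no BIX value of its own.

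**Figure D2:**
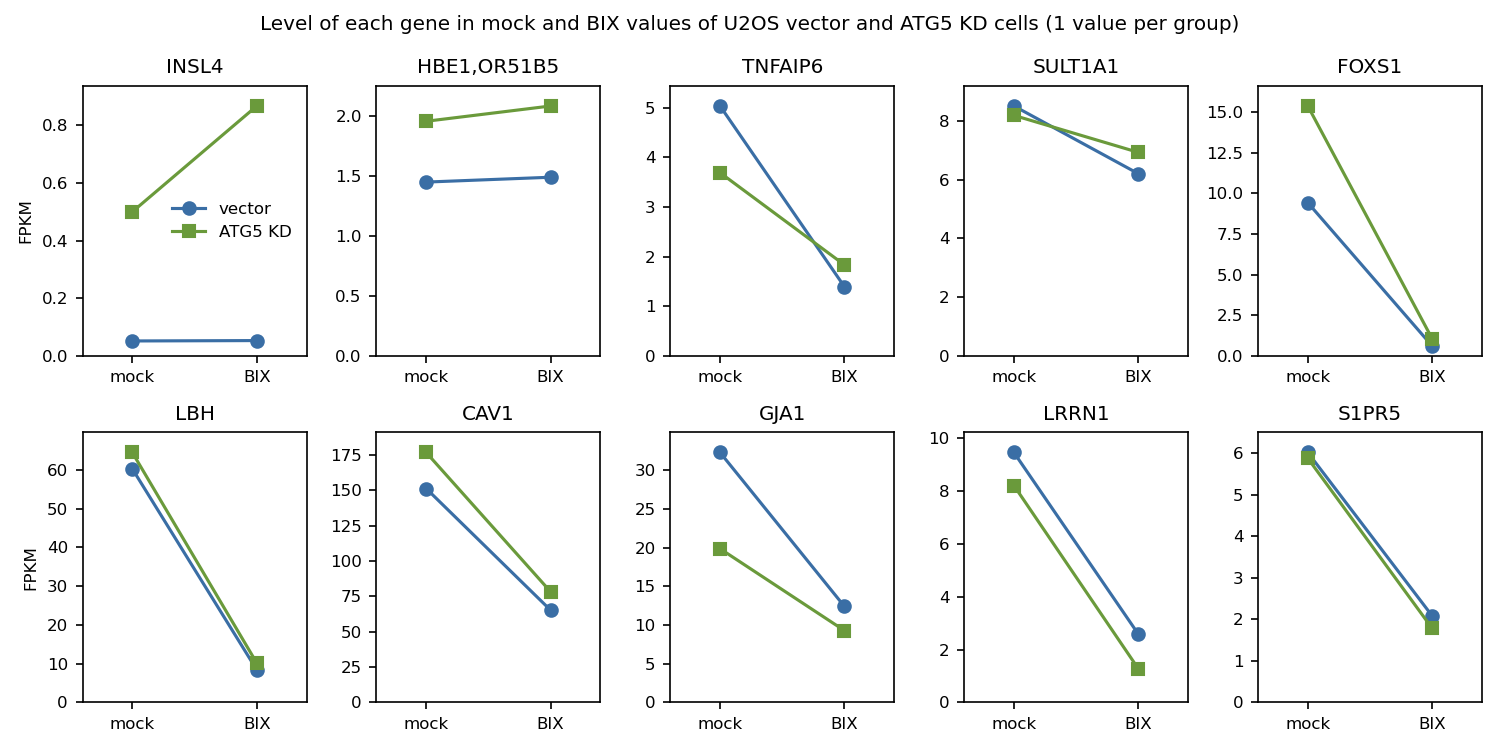
Level of each gene (vertical axis, FPKM, from 0) in mock and BIX values of U2OS cells with vector (circles) or ATG5 KD (squares), 1 value per group. Lines slope down in 8 panels, steeply for FOXS1 and LBH, and not for INSL4 or the joint HBE1 and OR51B5 row.

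**Figure D3:**
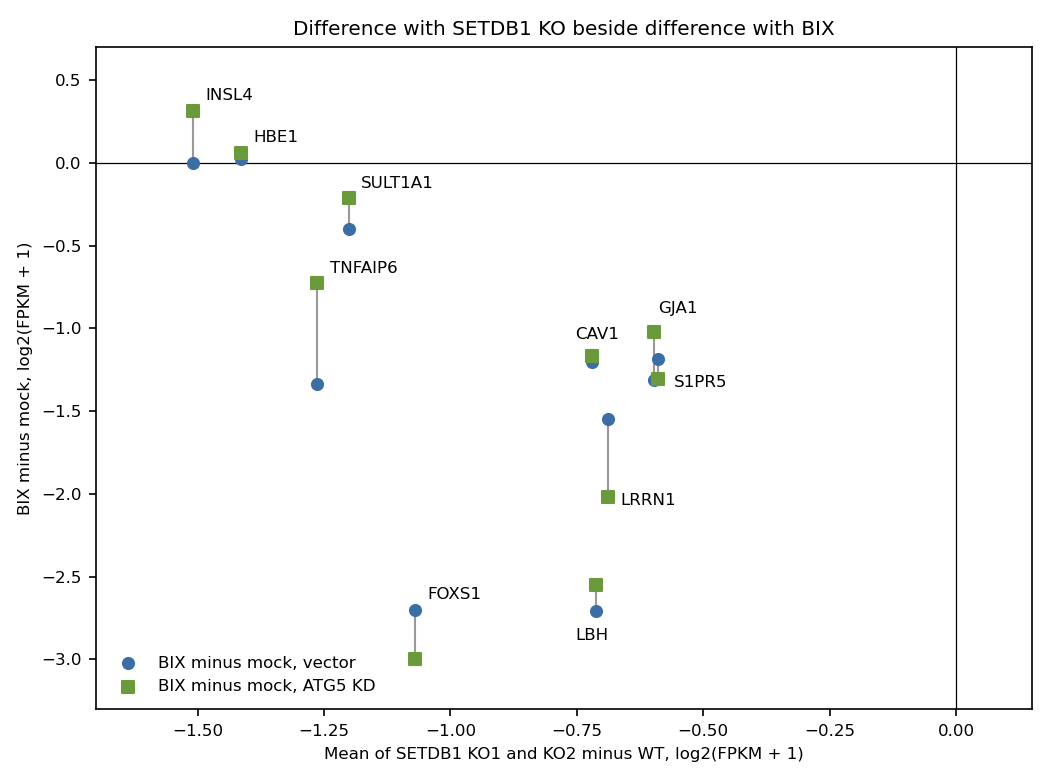
Log2(FPKM + 1) difference of the mean of the SETDB1 KOs from WT (horizontal axis) and of BIX from mock (vertical axis) for the 10 genes, in vector (circles) and ATG5 KD (squares), joined by a line per gene. The BIX value plotted for HBE1 is that of its joint row with OR51B5, and INSL4 was below FPKM 1 in all 4 BIX-experiment values. LBH, at -0.71 in the KOs, sits near -2.70 with BIX in vector.

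The mesenchymal marker sum was also lower with BIX, at 1034 to 1061 FPKM against 1304 to 1406 in mock, and its part in the BIX values was not tested. Across the whole tables, 10846 genes were measured in both experiments. Of the 81 among them called lower in the KOs, 27.2% were at least 2-fold lower with BIX in vector and 28.4% in KD, against 4.51% and 3.92% of all. Without the genes described here the shares were 20.5% and 23.3% of 73. The opposite direction was present too: of the 81, 9.88% in vector and 7.41% in KD were 2-fold higher with BIX, against 6.14% and 7.34% of all. Of the 187 called higher in the KOs, 2.67% and 3.21% were 2-fold lower with BIX. Seen from the other side, genes called lower in the KOs made up 4.50% of the 489 that were 2-fold lower with BIX in vector and 5.41% of the 425 in KD.

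ATG5 KD was compared with vector in mock, with 1 value per group. None of the 9 was 2-fold apart between KD and vector in mock, where 0.504% of all genes were higher and 0.448% lower by that much. The widest differences were GJA1 at -0.67, from 32.3 FPKM in vector to 19.9 in KD, and FOXS1 at 0.65, from 9.44 to 15.4. The BIX difference in KD was not 2-fold apart from that in vector for any of them, as it was for 0.931% of all genes. TNFAIP6 came nearest, 0.61 less lowered in KD, followed by LRRN1, 0.47 more lowered (-0.47). With no replicates, whether these differ beyond experimental spread was not tested.

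The genes' chromosomal neighbours were read as a comparison from the same libraries. The nearest gene on each side that passed the filter on low values, by RefSeq gene order, gave 20 genes. Genes below that level or with no listed value were skipped, up to 52 at the HBE1 locus. None of the 20 was called in either direction in the KOs. Over all genes tested 0.777% were called lower and 2.45% higher, so 0 of 20 is near the background. Their median difference was -0.05, and 12 were below 0, as were 53.1% of all genes tested. PLGRKT beside INSL4 had the lowest value (-0.32, SE 0.119, limma adjusted p = 0.260), followed by KEAP1 beside S1PR5 (-0.25, SE 0.109, adjusted p = 0.398). MET, the receptor tyrosine kinase gene after CAV1, stood at -0.03 (SE 0.101, adjusted p = 0.962). With BIX none was 2-fold lower in vector, and 1 was higher, YPEL5 beside LBH (30.6 to 66.0 in vector, 32.3 to 85.1 in KD).

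**Figure D4:**
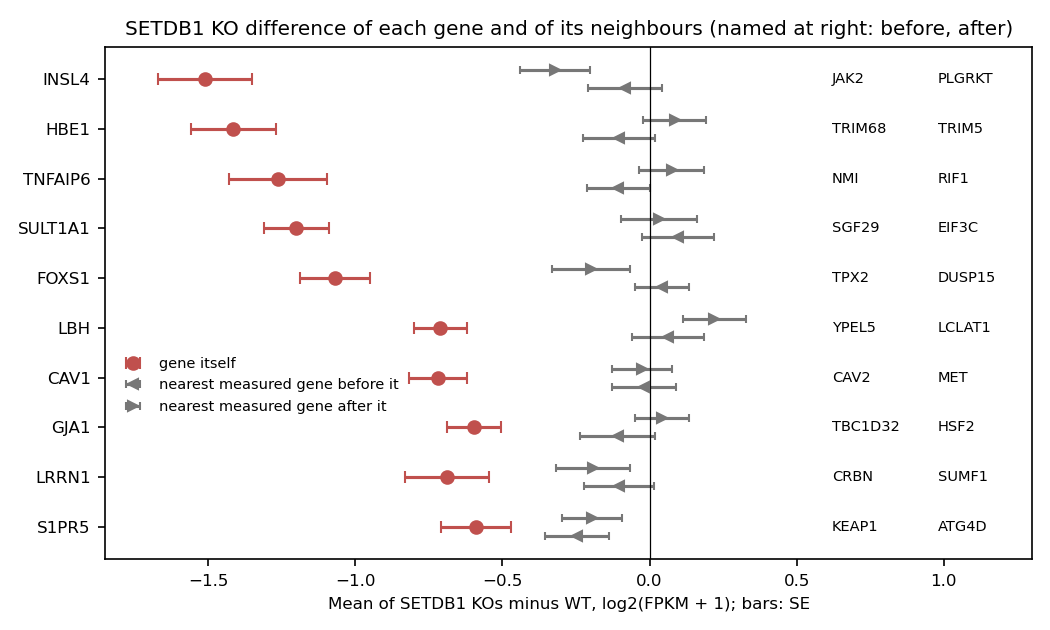
Mean of the SETDB1 KOs minus WT on the log2(FPKM + 1) scale (horizontal axis; bars are the SE of the fit) for each gene (circles) and its nearest measured neighbour before (left triangle) and after (right triangle) it. The 10 genes were chosen for low values on this axis and the neighbours were not. The neighbours lie between -0.32 and 0.22.

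For profiles, values of the SETDB1 cells were centred on WT and those of the ATG5 cells, KD included, on vector mock. Over the 10 human values, CAV1 followed the mean profile of the set most closely (Pearson r = 0.964), then TNFAIP6 (0.918), FOXS1 (0.896) and S1PR5 (0.875). HBE1 (0.506) and INSL4 (0.438) followed it least. In the ATG5 cells, HBE1 has only its joint row with OR51B5, and INSL4 was below FPKM 1 in all 4 values. Their r is therefore not read as a trait of either gene. Each gene is part of that mean, and values of a table share their control, so r only orders the genes. Of 11034 other genes, the most alike were CTSC, the protease cathepsin C (r = 0.976), GSTA4, a glutathione transferase (0.957), DDIT4, a stress-induced brake on mTOR signalling (0.953), TUBA1B, an alpha tubulin (0.948), and BOK, a BCL2-family gene (0.948). CTSC stood at 88.6 and 87.9 FPKM in WT, 63.0 and 57.1 in KO1 and 64.7 and 57.1 in KO2. With BIX it went from 75.5 to 40.4 in vector and from 81.0 to 48.9 in KD. DDIT4 went from 23.4 to 11.0 and from 24.8 to 11.2 with BIX. Both were picked for a profile like that of the set, so their lower KO and BIX values follow from that choice.

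In mouse L929 cells, whose values played no part in choosing the genes, 9 counterparts were found and 6 reached FPKM 1. Hbb-y and Lrrn1 were listed at 0 throughout, and Sult1a1 stayed below 0.510. None of the 6 was 2-fold lower with BIX in both genotypes, as 3.95% of 10750 genes were, so 0 of 6 is near the background. Lbh went from 53.1 to 37.7 FPKM in cGAS WT (-0.48) and from 47.9 to 36.5 in cGAS KO (-0.38). Gja1 went from 33.9 to 23.6 (-0.50) and from 22.6 to 10.9 (-0.98), and S1pr5 from 1.64 to 0.968 and from 1.88 to 0.677. These 3 were lower in both. Cav1 was higher in both, from 161 to 212 (0.40) and from 183 to 264 (0.52), and Tnfaip6 from 0.124 to 1.41 and from 0.122 to 0.550. Foxs1 went from 17.8 to 20.2 in cGAS WT and from 24.0 to 18.8 in cGAS KO. With 1 library per group, these are descriptions.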

How the data were processed

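Poly(A) RNA of 10 U2OS and 4 L929 samples was sequenced as paired ends. The 8 chromatin samples of the series were not analysed here. Values are the deposited gene-level FPKM, which the authors made with FastQC, cutadapt, TopHat2 and Cufflinks on hg19 or mm10, per the submitters' processing notes. Versions and strandedness: not given in the sources used here. Of repeated symbols the row with the highest mean was kept, rows that join symbols were kept as 1 gene, and short RNAs were left out by name (1868 in the SETDB1 table).

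The SETDB1 groups were fitted together with limma 3.58.1 in R 4.3.3 on log2(FPKM + 1), with a trend, over genes reaching FPKM 1 in 2 libraries or more. P values were adjusted by Benjamini-Hochberg over all 12618 genes and called below 0.05. The fit was tested on simulated data. Comparisons of single values counted genes at FPKM 1 or more that were 2-fold apart on the log2(FPKM + 1) scale, with no test.

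The genes described and all lists were chosen with earlier results of these data known. Named beside them are, from each of 10 family lists, up to 4 genes called in the mean of the KOs and up to 4 that were 2-fold apart in the same direction with BIX in both backgrounds. The nearest measured neighbours, the 5 most alike profiles, the targets and the mouse genes of the same name are named too. Some genes that these rules name are not reported here. The search for near-identical paralogs by protein identity was not run, and SULT1A2 and SULT1A4 are named from background knowledge. Alternatives covered the pseudocount, the filter, the scaling, the replicate number and each library left out.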

Additional observations from a re-analysis of the deposited data

Results flagged for a closer look

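TNFAIP6 went down with BIX in both U2OS backgrounds and up in both L929 genotypes. The mean log2 difference in L929 was 1.81 above that in U2OS. The mouse gene was low, at 0.124 and 0.122 FPKM in the mock libraries. CAV1 likewise went down in both U2OS backgrounds and up in both L929 genotypes, with a mean log2 difference 1.64 above that in U2OS, and it was abundant in both lines. Each background had 1 value per group, the lines differ in species and were quantified separately, and the difference between them was not tested for either gene.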

How the results depend on the processing

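No gene of the 10 changed direction in the KOs under the settings run for it, and no library left out moved such a difference past 1.5 times. INSL4 and HBE1 have no value without either WT library, since they then miss the filter on low values. A pseudocount of 0.1 gave -3.08 for INSL4 and -3.26 for HBE1. In KO1 minus KO2, leaving out a library turned the sign of GJA1 (-0.101 to 0.0384). LRRN1 turned as well (-0.31 to 0.21, with 0.0387 and 0.209 as the values above 0). With all libraries kept, no gene of the 10 passed adjustment, and nothing is read from this for INSL4 and HBE1. Calls in that comparison ranged from 0 to 5 genes. Centring on the median turned INSL4 with BIX in vector to -0.000245.

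Genes called in the mean of the KOs numbered 407. A minimum FPKM of 5 left 201 (154 higher, 47 lower), and no filter left 59 lower. Leaving out 1 library gave 274 to 438 in all, 213 to 318 higher and 36 to 142 lower, of which 61 without WT replicate 1 and 36 without WT replicate 2. The lone WT library was then assumed to vary like the others. The replicate number as a block gave 506 in all (351 higher, 155 lower). Deviations of same-numbered libraries correlated at 0.37 between WT and KO1, 0.00 between WT and KO2 and 0.20 between KO1 and KO2. The main fit assumed no pairing, and these values do not show that there was none. Low-value steps did line up more within a number (17.8% to 22.8% of low genes in 1 step window) than between numbers (6.89% to 8.59%), and what the numbers share is not stated in the labels.

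A pseudocount of 0.1 gave 2127 genes 2-fold apart with BIX in vector (1085 lower), 2352 in KD (1044 lower), 267 between KD and vector in mock (135 higher, 132 lower) and 1069 lower in L929 cGAS WT. Absolute depth is unknown, and INSL4 and HBE1 in the KOs are near the level of single fragments.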

Other observations

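The genes in this paragraph were chosen after their values were seen. Of the other genes looked at around HBE1, 3 were lower in the KOs, at levels too low to be tested. OR51B5 stood at 0.942 and 2.04 FPKM in WT and at 0.196, 0.0507, 0.221 and 0.0700 in the KO libraries. OR51B4 stood at 0.638 and 0.336 in WT and at 0.0827, 0.0879, 0 and 0.121. HBG2, a fetal globin gene, stood at 0.341 and 0.220 in WT and was listed at 0 in all 4 KO libraries, while HBB, HBD and HBG1 were listed at 0 in WT and KO alike. All 3 genes with a value had every KO library below both WT libraries. Of genes that passed the filter on low values 11.2% did so, but these 3 did not pass it. The share among genes this low was not counted. Since the 3 genes were chosen with these values known, their count is a description.

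CD274, which encodes the immune checkpoint ligand PD-L1 and lies on the same chromosome arm as INSL4, fell by 0.62 in the mean of the KOs (SE 0.129, limma adjusted p = 0.0195). It stood at 2.02 and 1.84 FPKM in WT, 0.750 and 0.913 in KO1, and 1.005 and 0.974 in KO2, with no overlap. The call was lost without WT replicate 1 (limma adjusted p = 0.180), WT replicate 2 (0.115) or KO2 replicate 2 (0.0523). With BIX it went the other way, from 1.59 to 12.2 in vector and from 1.60 to 23.4 in KD. The KO and BIX values of this gene thus had opposite directions.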
